A study of Mus musculus with 2 samples.

Results

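The proximal miRNAs of the imprinted Dlk1-Dio3 domain are a run of miRNA genes on mouse chromosome 12 that starts within the long non-coding RNA gene Meg3 and ends opposite the protein-coding gene Rtl1. The members were chosen by name and position: Mir770, Mir673, Mir493, Mir540, Mir665, Mir431, Mir433, Mir127, Mir434 and Mir136, with those antisense to Rtl1 kept apart from the others. Of the 10 named genes, 9 could be matched by gene identifier to the tables, out of 1973 miRNA genes listed there. Mir136 had no entry of its own.

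Short RNAs were sequenced by microRNA-seq, which counts RNAs in the size range of mature miRNAs, here under 30 nt as the labels give it. The tissue was heart from healthy mouse embryos of strain B6NCrl at 13.5 days, with male and female embryos pooled, total RNA as the starting material, and no allele or treatment named beyond the strain. The 2 libraries come from separate biosamples that share 1 donor or strain record and form 1 group, so no treatment, genotype or age was compared. The SD therefore measures only the spread between these 2 samples, and the p-values of single genes set the difference between them against counting error.

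In the Dlk1-Dio3 domain, protein-coding genes such as Dlk1, Rtl1 and Dio3 are expressed from the paternal chromosome. Non-coding RNAs such as Meg3 and the transcript antisense to Rtl1, together with the miRNAs they carry, are expressed from the maternal one. Rtl1 is a gene derived from a retrotransposon that is needed for the fetal blood vessels of the placenta. The miRNAs made from its antisense strand match its messenger RNA along their whole length and can direct its cleavage. Elsewhere, miRNAs pair with targets mainly through the seed, bases 2 to 8 from the 5′ end.

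The libraries held 12136246 (replicate 1) and 12282789 reads (replicate 2), and 45.9% and 49.2% of them fell on miRNA genes in sense orientation. Levels are sense counts scaled to a library total of 1000000 (CPM), and 281 of the 1973 genes (14.2%) reached 10 CPM in both libraries. Reads mapping to several places formed a class of their own (26.9% and 28.0% of reads) outside these totals. A gene with copies elsewhere may therefore read low, which bears on levels, ranks and shares. The heart label was checked against miRNAs known from cell types. The smooth muscle pair Mir143 and Mir145a summed to 85136 and 93532 CPM, nearly all of it Mir143 (84268 and 92601). Mir145a was at 868 and 931 CPM, and endothelial Mir126a was at 74876 and 66025. The 3 cardiomyocyte miRNA genes (Mir208a, Mir208b, Mir499) summed to 50718 and 53387 CPM. The skeletal muscle pair Mir206 and Mir133b summed to 83.3 and 118 CPM, mostly Mir206 (79.5 and 116). The 6 neural markers listed in the tables summed to 85.6 and 54.1 CPM, nearly all of it Mir137 (83.1 and 52.7). Mir124a-1, Mir124a-2, Mir124a-3 and Mir9-2 were at 0. Whether reads of the Mir124a and Mir9 genes fell among those mapping to several places was not tested, so these values of 0 are not read as absence. Mir122 of liver was at 201 and 591 CPM, and the erythroid pair Mir144 and Mir451a at 1159 and 897. In bulk tissue, fewer cells of a type and less RNA per cell cannot be told apart.

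The mature sequences of the genes antisense to Rtl1 are shown first because each is the exact complement of a stretch of Rtl1 coding sequence. They are written 5′ to 3′ with the seed in capitals and come from the RefSeq miRNA table on GRCm38.p6.

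miR-431-5p: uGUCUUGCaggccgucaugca
miR-431-3p: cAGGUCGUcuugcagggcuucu
miR-433-5p: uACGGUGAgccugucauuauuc
miR-433-3p: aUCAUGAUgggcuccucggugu
miR-127-5p: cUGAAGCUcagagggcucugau
miR-127-3p: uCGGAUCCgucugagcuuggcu
miR-434-5p: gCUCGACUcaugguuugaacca
miR-434-3p: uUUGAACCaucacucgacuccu
miR-136-5p: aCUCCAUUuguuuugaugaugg
miR-136-3p: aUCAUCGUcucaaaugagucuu

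All 10 of these mature sequences had a complement over their whole length in the annotated Rtl1 transcript, against 0 of the 10 mature sequences of the other 5 genes. That follows from where the genes lie. For the most abundant of them, Mir127, the Rtl1 stretch opposite miR-127-3p is printed on the Rtl1 (minus) strand, with the bases that pair with the seed in capitals. It lies at chr12:109592888-109592909 (mm10), in the coding part of Rtl1.

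Rtl1 stretch opposite miR-127-3p: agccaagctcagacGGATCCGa

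The most abundant of the other members were Mir540 and Mir665, whose mature sequences have no such complement in Rtl1 and are shown for contrast, followed by the remaining 3 genes.

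miR-540-5p: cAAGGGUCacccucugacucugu
miR-540-3p: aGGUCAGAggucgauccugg
miR-665-5p: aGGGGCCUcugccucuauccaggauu
miR-665-3p: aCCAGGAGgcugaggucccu
miR-493-5p: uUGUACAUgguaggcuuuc
miR-493-3p: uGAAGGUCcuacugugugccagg
miR-673-5p: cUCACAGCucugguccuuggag
miR-673-3p: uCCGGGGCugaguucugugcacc
miR-770-5p: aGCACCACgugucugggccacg
miR-770-3p: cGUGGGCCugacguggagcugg

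The 20 mature sequences of the 10 genes carried 20 distinct seeds, so no pair of members forms a family by seed. Only 2 of the 20 shared a seed with a miRNA of another gene among the 1738 mature sequences of the table, namely miR-673-5p with miR-6985-3p and miR-540-3p with miR-6915-5p. No mature sequence of the members was found whole in the hairpin of another gene. The tables count reads per gene, so the arms of a hairpin cannot be told apart in the values that follow. The GC content of the hairpins ran from 40.3% to 60.4% for the antisense genes (median 56.5%) and from 53.0% to 70.2% for the others (median 61.2%).

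On mm10 the 10 loci span 31697 nt of the plus strand of chromosome 12. Mir770 (109563692 to 109563785) lies within Meg3, where 4 transcripts on the same strand span it and 1 of them has it in an exon. Mir673 (109571990 to 109572080), Mir493 (109580233 to 109580315), Mir540 (109586080 to 109586146) and Mir665 (109586314 to 109586407) follow it, with no annotated host transcript on their strand. Only 167 nt separate Mir540 and Mir665. The 5 antisense genes lie within 4942 nt, all inside the coding exon of Rtl1 and on the strand opposite to it, in the order Mir431 (109590447 to 109590537), Mir433 (109591715 to 109591838), Mir127 (109592846 to 109592915), Mir434 (109594506 to 109594599) and Mir136 (109595327 to 109595388). Rtl1 itself runs on the minus strand from 109589193 to 109600330, and its coding part measures 5232 nt.

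The embryonic heart held all 9 measured members above 10 CPM in both libraries, and none of the 9 had a count on the opposite strand. Together they took 1.13% of sense counts in replicate 1 (exact Clopper-Pearson 95% interval 1.12 to 1.14) and 1.05% in replicate 2 (1.05 to 1.06), a mean of 1.09% ± 0.0551 (SD, n = 2). The 4 measured genes antisense to Rtl1 made up 91.8% ± 0.123 (SD, n = 2) of the members' counts. Mir127 and Mir431 alone made up 76.8% ± 0.370 (SD, n = 2).

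Among the antisense genes, Mir127 (ENSMUSG00000070076) was counted 27268 times in replicate 1 and 28496 times in replicate 2. These counts are 4896 and 4719 CPM, a mean level of 4807 ± 125 CPM (SD, n = 2), which placed the gene 30th of all genes by mean CPM. Mir127 supplied 43.2% of the members' counts in replicate 1 and 44.8% in replicate 2. miR-127 is known as a repressor of Rtl1.

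Mir431 (ENSMUSG00000070080), the antisense gene nearest to Meg3, was counted 21303 and 20207 times, or 3825 and 3346 CPM. Its mean of 3585 ± 338 CPM (SD, n = 2) had the widest spread of the 4 in CPM, and its rank was 39. Replicate 1 was the higher library for Mir431, and for Mir127 on total counts but not under TMM or DESeq2 scaling. The level of Mir431 stayed under that of Mir127 in each library, by 1.28-fold and 1.41-fold.

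Mir434 (ENSMUSG00000070133) was counted 5145 and 4949 times, or 924 and 819.5 CPM, with a mean of 872 ± 73.7 CPM (SD, n = 2). Mir433 (ENSMUSG00000070072) was counted 4234 and 4742 times, or 760 and 785 CPM, with a mean of 773 ± 17.7 CPM (SD, n = 2). These genes flank Mir127 on either side, and their mean levels lay 5.52-fold and 6.22-fold below it. Mir434 was the higher of the pair in both libraries, by 1.22-fold in replicate 1 and by 1.04-fold in replicate 2. The libraries themselves went opposite ways, since Mir434 had its higher value in replicate 1 and Mir433 in replicate 2.

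**Figure D1:**
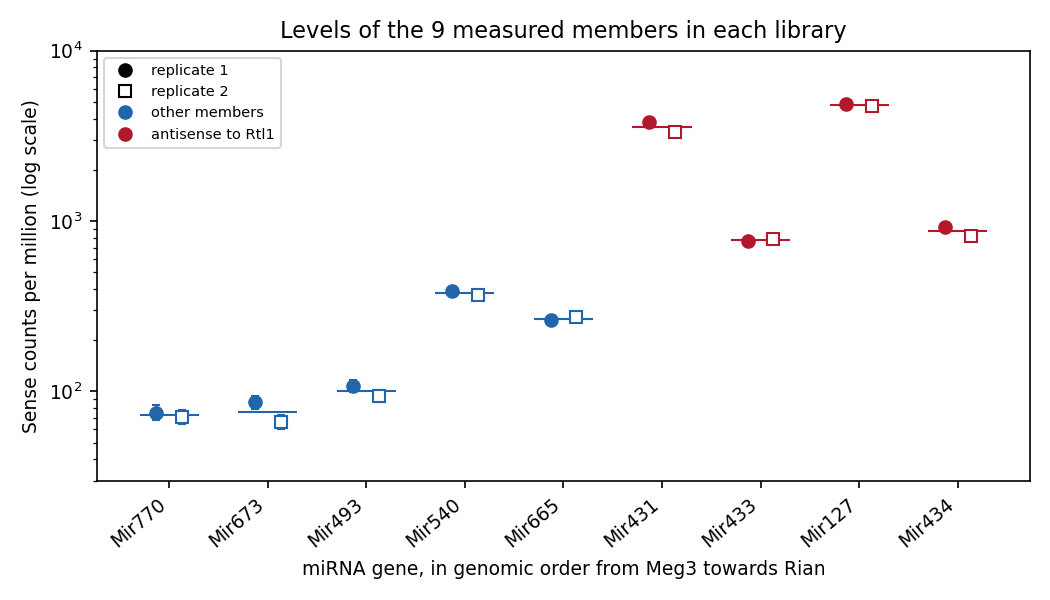
Level in CPM on a log scale for the 9 measured members in genomic order, with replicate 1 as filled circles and replicate 2 as open squares. Bars are exact 95% Poisson intervals of each count (counting error only) and horizontal lines are means. The antisense genes, in red, all lie above the other members, in blue, in both libraries.

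Among the members outside Rtl1, the neighbours Mir540 and Mir665 held the most. Mir540 (ENSMUSG00000072900) was counted 2153 and 2232 times, which is 387 and 369.6 CPM, with a mean of 378 ± 11.98 CPM (SD, n = 2). Mir665 (ENSMUSG00000076313) was counted 1459 and 1646 times, at 262 and 273 CPM, with a mean of 267 ± 7.51 CPM (SD, n = 2). The pair made up 70.7% and 73.6% of the counts of the 5 genes outside Rtl1. Mir540 exceeded Mir665 in both libraries, by 1.48-fold and 1.36-fold.

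The 3 genes nearer to Meg3 were the least abundant members. Mir493 (ENSMUSG00000077025) was counted 600 and 567 times, at 108 and 93.9 CPM, with a mean of 100.8 ± 9.78 CPM (SD, n = 2). Mir673 (ENSMUSG00000076316) was counted 481 and 400 times, at 86.4 and 66.2 CPM, with a mean of 76.3 ± 14.2 CPM (SD, n = 2). Mir770 (ENSMUSG00000076451), the one gene within Meg3, was counted 419 and 427 times, at 75.2 and 70.7 CPM, with a mean of 73.0 ± 3.19 CPM (SD, n = 2). In replicate 1 Mir673 exceeded Mir770 and in replicate 2 it lay below it, and the exact 95% Poisson intervals of these genes overlapped in both libraries. Their ranks among all genes were 181, 197 and 201.

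**Figure D2:**
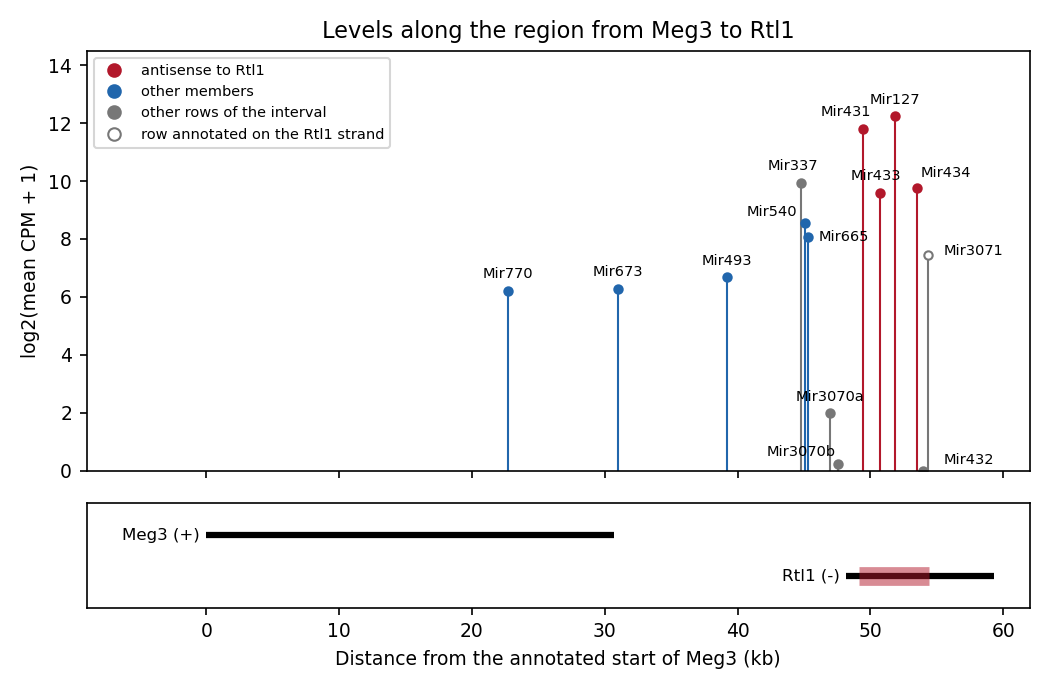
Mean level of each miRNA gene of the region as log2(mean CPM + 1) against distance in kb from the annotated start of Meg3, with the gene bodies below and the coding part of Rtl1 shaded red. The members outside Rtl1 (blue) run from 73.0 CPM at Mir770 to 378 CPM at Mir540, and the 4 antisense genes (red) from 773 to 4807 CPM. Grey points are genes of the same interval that are not members.

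The locus of Mir136 needs a separate account. The tables have no entry under the identifier that GENCODE M21, the annotation used here for coordinates, gives to Mir136. They do hold an overlapping entry (ENSMUSG00000070129), which M21 assigns to Mir3071 on the Rtl1 strand (109595318 to 109595397). The version number of that identifier in the tables differs from the version in M21, and the strand the authors' annotation gave it is not given in the sources used here. The Mir136 locus lies entirely inside it, and the mature sequences of Mir3071 are therefore made from the opposite strand of the same stretch.

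miR-3071-5p: aCUCAUUUgagacgaugaugga
miR-3071-3p: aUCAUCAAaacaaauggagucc

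This entry was counted 929 times in replicate 1 and 1098 times in replicate 2 on its own strand, and 0 and 2 times on the opposite strand. Its level was 167 and 182 CPM, with a mean of 174 ± 10.6 CPM (SD, n = 2), between Mir665 and Mir493 (rank 148). The counts cannot be assigned to Mir136 or to Mir3071, and they enter the sums only in the alternatives that name this entry.

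Other genes of the same interval with an entry were Mir337, Mir3070a, Mir3070b and Mir432, and Mir3544, annotated opposite Mir337, had none. Mir337 (ENSMUSG00000065526) lies next to Mir540, outside Rtl1, and was counted 5859 and 5551 times. At 1052 and 919 CPM, with a mean of 986 ± 93.8 CPM (SD, n = 2), it lay above Mir434 and Mir433 in both libraries. Mir3070a was counted 21 and 13 times and Mir3070b 0 and 2 times. Mir432 lies inside the Rtl1 coding exon on the antisense strand, between Mir434 and Mir136, and had no count in either library, so that a level of at most 0.539 CPM (replicate 1) or 0.497 CPM (replicate 2) could have gone uncounted.

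The split by Rtl1 was then compared within each library. The 4 antisense genes summed to 10404 and 9669 CPM, a mean of 10037 ± 519 CPM (SD, n = 2). The 5 other members summed to 918 and 873 CPM, a mean of 895 ± 31.7 CPM (SD, n = 2). The antisense genes were therefore 11.3-fold higher in replicate 1 and 11.1-fold higher in replicate 2 (mean log2 ratio 3.49 ± 0.0237, SD, n = 2), with the same direction in both libraries and a difference much larger than the spread between them. That spread does not measure whether RNAs of different genes were captured equally well. This was not tested and bears on every comparison between genes here. An exact two-sided sign-flip permutation test gave p = 0.5, the smallest value that 2 libraries allow.

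None of the 4 measured antisense members overlapped another member: Mir433 exceeded Mir540 by 1.97-fold in replicate 1 and by 2.12-fold in replicate 2. This leaves out Mir136, whose own level is not known, and the entry over its locus (167 and 182 CPM) lay below Mir540 and Mir665. It also leaves out Mir432, an antisense gene that is not a member and had no count. The median antisense gene was at 2374 and 2083 CPM, and the median other member at 108 and 93.9 CPM. The size of the difference depends on which genes of the interval are counted on the other side. With Mir337 added there, a comparison chosen after seeing the data, the ratio was 5.34-fold. With all non-member genes of the interval added, Mir432 to the antisense side and the rest to the other side, it was 4.88-fold. There the Mir3071 entry stood on the other side, as M21 annotates it.

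Ordered by mean CPM, the members ran Mir127, Mir431, Mir434, Mir433, Mir540, Mir665, Mir493, Mir673 and Mir770. Neighbours in this order were said to differ beyond their spread where both libraries gave the same sign and the mean log2 ratio exceeded its SD, which held for 7 of 8 pairs. The order came from the same values, so the direction of each mean was largely set in advance. The count of pairs is a description and not a test. The largest step was from Mir431 to Mir434, at 4.11-fold (mean log2 ratio 2.04 ± 0.0143, SD, n = 2). The step from Mir665 to Mir493 was 2.66-fold (1.41 ± 0.181) and that from Mir433 to Mir540 was 2.04-fold (1.03 ± 0.0788). Mir434 and Mir433 differed least among the 7, with a mean log2 ratio of 0.17 ± 0.155 (SD, n = 2). Mir673 and Mir770 did not differ beyond their spread (0.052 ± 0.207). From the first to the last member the level fell 65.9-fold, by 65.1-fold and 66.7-fold in the separate libraries.

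Divided by annotated gene length, the order and the count of 7 pairs stayed the same. On that per-length scale Mir433 was at 6.23 CPM per nt and Mir540 at 5.64, so the gap between the lowest antisense gene and the highest other member narrowed to 1.10-fold. Mir337 was at 10.2 CPM per nt, above Mir434 at 9.27. Annotated lengths were 124 nt for Mir433 and 67 nt for Mir540, while the RNAs sequenced were under 30 nt. Whether annotated length bears on these counts was not tested.

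The distal cluster of the same domain, from Mir379 to Mir410, was compared as the miRNA group most like the proximal one. Its 33 plus-strand genes summed to 32910 and 30512 CPM, a mean of 31711 ± 1696 CPM (SD, n = 2), or 3.17% ± 0.170 of sense counts. The distal sum was 2.90-fold higher than that of the 9 proximal members (log2 ratio of proximal over distal -1.54 in replicate 1 and -1.53 in replicate 2), and the difference far exceeded the spread between libraries. The distal sum leaves out plus-strand counts in 4 entries annotated on the minus strand. With those added, a comparison chosen after seeing the data, the mean log2 ratio was -1.85. The exact sign-flip permutation test again gave p = 0.5, its smallest value.

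The direction turned when genes were compared by their median. The median proximal member was at 378 CPM and the median distal gene at 143 CPM. The proximal members were 21.4% of the 42 genes and held 25.6% ± 0.0585 (SD, n = 2) of their counts. All 9 proximal members reached 10 CPM in both libraries, against 27 of the 33 distal genes, of which 1 had no count. Only 2 distal genes lay above Mir127, Mir487b at 7558 and 7575 CPM and Mir411 at 7619 and 6620 CPM, while 11 lay below Mir770. The distal median, the shares and these numbers of distal genes likewise leave out the 4 entries annotated on the minus strand and their plus-strand counts.

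**Figure D3:**
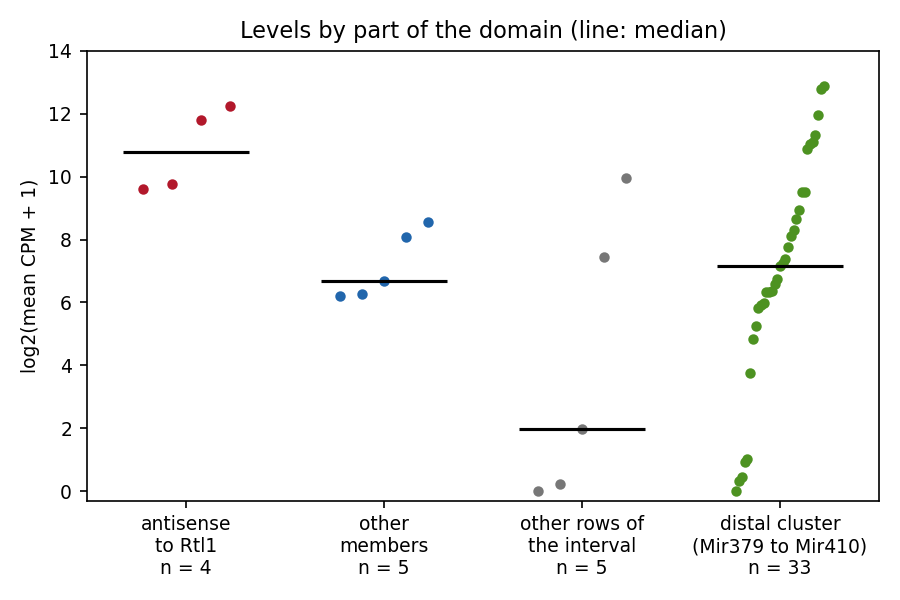
Mean level of each gene as log2(mean CPM + 1) by group, with 1 point per gene and a line at the median. The 4 antisense genes and the 5 other members do not overlap. Of the 5 other genes of the interval, Mir337 (986 CPM) lies within the antisense range, and Mir432, antisense but not a member, had no count. The 33 distal genes range from no count to 7566 CPM at Mir487b.

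The libraries were compared gene by gene with a two-sided exact binomial test on the counts, which compares these libraries and not conditions. It sets the difference against counting error alone and takes reads copied by PCR as independent, so its p-values are too small for a spread between samples. Among 288 genes with a mean of at least 10 CPM, 17 (5.90%) differed by 1.5-fold or more at a Benjamini-Hochberg adjusted p under 0.05. None of the 9 members passed both. At an adjusted p under 0.05 with any ratio, 5 of 9 members differed, against 61.5% of all genes tested. All 5 were higher in replicate 1, and 0 were higher in replicate 2. Of all tested genes, 43.1% passed this threshold and were higher in replicate 1, and 18.4% passed it and were higher in replicate 2. The share of members that differed is thus near that of the background.

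The 5 members were Mir673, Mir493, Mir431, Mir434 and Mir127. Mir673 differed most, by 1.30-fold (log2 ratio of replicate 1 over replicate 2 of 0.38, exact binomial test, adjusted p = 0.000213). Mir431 was 1.14-fold higher in replicate 1 (log2 0.19, adjusted p = 3.27e-41, same test). Mir127 was 1.04-fold higher (log2 0.053, adjusted p = 3.54e-05), and this direction turned under TMM scaling (log2 -0.050) and DESeq2 size factors (-0.064).

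The scaling of the libraries sets these directions in part. The median log2 ratio over all 288 genes was 0.10 on total counts, -0.0031 with TMM factors and -0.016 with DESeq2 size factors. The DESeq2 size factor was 1 for each library, so that setting compares the counts unscaled. The members' median was 0.088 on total counts, close to that of all genes, and 7 of 9 members lay above 0 (77.8%, against 65.6% of all genes). With TMM factors 4 of 9 lay above 0, and Mir673, Mir431 and Mir434 were higher in replicate 1 while Mir665, Mir433 and Mir127 were higher in replicate 2 (exact binomial test, adjusted p under 0.05). Mir673 and Mir431 passed this threshold, higher in replicate 1, under all 3 scalings. The median size of the log2 ratio was 0.088 for the members and 0.16 for all genes. This comparison is not matched for level, since the lowest member mean was 73.0 CPM and the test took genes from 10 CPM.

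**Figure D4:**
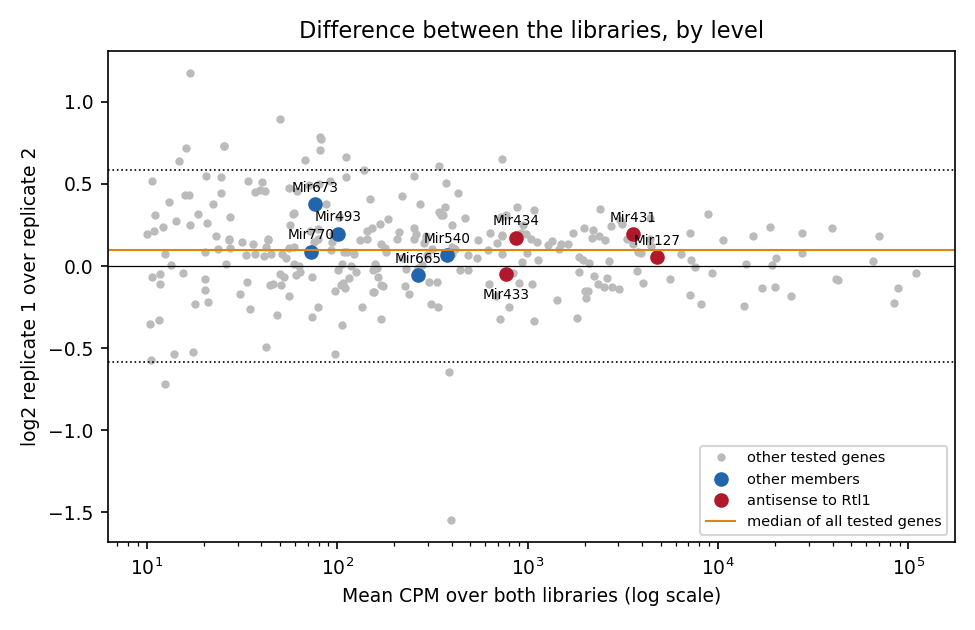
Log2 ratio of replicate 1 over replicate 2 (CPM with a pseudocount of 1) against mean CPM for 288 genes, with the members in colour, the median of all genes in orange and dotted lines at a ratio of 1.5. All 9 members lie inside the dotted lines, between -0.057 for Mir665 and 0.38 for Mir673.

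The genes whose pair of log2(CPM + 1) values lay nearest to those of the highest member of each side were found over the 2 libraries, which is a description of level only. For Mir127 they were Mir744 at 4458 ± 262 CPM, Mir98 at 4391 ± 354 CPM and Mir10a at 4407 ± 631 CPM (SD, n = 2), on chromosomes 11, X and 11. For Mir540 they were Mir543 of the distal cluster at 401 ± 22.8 CPM, Mir339 at 403 ± 14.9 CPM and Mir199b at 399 ± 49.5 CPM (SD, n = 2).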

How the data were processed

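The deposited tables hold whole-number counts of reads per miRNA gene on each strand and on both together. Per the file headers and notes deposited with them, the authors aligned to mm10 and used GENCODE M4. Which aligner, counter and trimming were used is not given in the sources used here. The unmapped (21.2% and 17.2%), multi-mapping (26.9% and 28.0%) and no-feature (3.60% and 2.92%) read classes stayed out of totals. The number of reads per library adds these classes to the gene counts of both strands, as if they were separate. Whether multi-mapping reads also enter gene counts is not stated. No member has an identical copy among the RefSeq hairpins.

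Sense counts, 5569959 and 6039005 per library, were scaled to CPM. Of 1973 gene identifiers, 1894 matched GENCODE M21 on mm10, used for symbols and coordinates. Identifier versions differ between the tables and M21 for several genes, among them Mir127, Mir540, Mir337, Mir3071 and genes of the distal cluster. RefSeq tables gave the sequences, and all 10 named genes matched. A count of 0 allows up to 3 counts. Intervals and this floor cover only counting error, because PCR copies without molecular identifiers are not independent.

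Genes with a mean CPM of at least 10 were tested with an exact binomial test, with library totals as offset and Benjamini-Hochberg adjustment over all of them. Calls needed a ratio of 1.5 and an adjusted p under 0.05, with a pseudocount of 1 CPM. The step was also run on simulated counts with counting error only, which do not carry the spread between these libraries. Sums were compared by their log2 ratio in each library. Alternatives were TMM (edgeR 4.0.16) and DESeq2 1.42.0 scaling in R 4.3.3, CPM minimums, pseudocounts, ratios, strands, medians, lengths and single libraries. Python 3.11.15, numpy 2.4.6, pandas 2.3.3, scipy 1.17.1 and matplotlib 3.10.9 were used.

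Named genes are the 10 members, the other genes of the interval, the 3 nearest in level to the highest member of each side, and the top gene of the distal cluster. Cell type markers and the middle-domain and other imprinted genes are named as lists. Mir411 and, in the closing section, the minus-strand distal genes were chosen after their values were seen. Members and lists were chosen with earlier results of these data known.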

Additional observations from a re-analysis of the deposited data

Results flagged for a closer look

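These values lie in data outside the main sums and comparisons, used only in alternatives that name them, and are above the level that a count of 0 allows. The entry at the Mir136 locus, annotated as Mir3071, held a mean of 174 CPM on its own strand. In the distal cluster, 4 entries annotated on the minus strand had nearly all their counts on the opposite, plus strand. The mean opposite-strand level was 4638 ± 522 CPM at Gm24321, 1340.2 ± 26.9 at Gm25252, 532 ± 19.0 at Gm25750 and 1075 ± 65.0 at Mir299b (SD, n = 2). On their own strand Gm24321, Gm25252 and Gm25750 had no count, and Mir299b had 6 and 4.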

How the results depend on the processing

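The share of sense counts held by the members was 1.04% with counts of both strands, 0.519% of all reads and 1.23% without the most abundant gene. The log2 ratio of antisense genes over the other members kept its direction in all settings run. It was 4.47 by medians, 3.34 without the highest member of each side, 2.29 with the other genes of the interval added (Mir432, at 0, to the antisense side and the rest, the Mir3071 entry included, to the other side) and 3.45 divided by gene length. Chosen after seeing the data, it was 3.51 with the Mir3071 entry added to the antisense side and 2.42 with Mir337 added to the other side. The log2 ratio of members over the distal cluster reversed to 1.40 by medians. It was -1.85 with the plus-strand counts of the minus-strand entries added to the distal cluster, also chosen after seeing the data. Leaving out 1 library at a time gave shares of 1.05% to 1.13%, antisense ratios of 3.47 to 3.50 and distal ratios of -1.54 to -1.53. The count of all genes called between the libraries, 17, became 45 with no CPM minimum, 6 at a minimum of 100 CPM and 2 at a ratio of 2, while 0 members were called in each setting. The library log2 ratio reversed under TMM and DESeq2 scaling for Mir770 (-0.014 and -0.027), Mir540 (-0.039 and -0.052) and Mir127 (-0.050 and -0.064). Mir493 (exact binomial test) went from an adjusted p of 0.0329 to 0.346 under TMM, 0.443 under DESeq2 and 0.0661 with no minimum, and Mir434 to 0.0869 under DESeq2. Mir665 and Mir433 passed 0.05, higher in replicate 2, under TMM and under DESeq2, whose size factors left the counts unscaled. The causes were not tested. No paired analysis was possible because the 2 libraries form 1 group. Counting intervals overlap for Mir673 and Mir770 in both libraries and for Mir434 and Mir433 in replicate 2. The smallest p of the exact sign-flip permutation test over 2 libraries is 0.5.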

Other observations

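Between Rtl1 and the distal cluster, 3 further miRNA genes of the domain form its middle section. Mir341 held 485 and 492 CPM (mean 488 ± 5.11, SD, n = 2), Mir370 held 312 and 275 CPM (294 ± 26.2) and Mir1188 held 10.7 ± 0.365 CPM. The levels of Mir341 and Mir370 thus lay between those of the antisense genes and those of Mir493, Mir673 and Mir770.

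Imprinted miRNA genes of other chromosomes covered a wider range than the members. Mir335 of the Mest locus held 110067 ± 2450 CPM, above every member, and Mir483 of the Igf2 locus 3339 ± 267 CPM, between Mir431 and Mir434 (SD, n = 2). Mir296 and Mir298 of the Gnas locus held 2405 ± 407 and 1963 ± 36.4 CPM. Mir675 of H19 held 169.6 ± 9.56 CPM, between Mir665 and Mir493.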
